A study of Mus musculus with 2 samples.

Results

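The barcodes described here are those of 2 single-cell libraries of mouse small intestine that held at least 500 unique molecular identifiers (UMIs, each standing for 1 captured RNA molecule) and drew over 25% of them from the genes of the mitochondrial genome. They were chosen by these measured values alone. There were 2926 such barcodes among 10259 in the control library (28.5%, exact 95% interval 27.6 to 29.4) and 3547 among 11468 in the model library (30.9%, 30.1 to 31.8), or 6473 of 21727 in all. The other 7333 and 7921 barcodes, at or below the limit, are what they were set against. Paired values below are given in the order control, model. All intervals are at 95% and, save where stated, cover counting error only. With 1 library a group no difference has a replicate check and none was tested.

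Both libraries came from small intestine of mice, labelled only as control and as model. The series title speaks of simulated microgravity, radiation and a compound called CB001, while the labels give neither the treatment behind the model library, nor genotype, strain, age, the number of mice or the gut segment. Neither of the libraries analysed here is labelled with the compound. Tissue freed of mesentery and lymphoid patches had been flushed, treated with EDTA, which loosens the epithelium, and then digested with collagenase and DNase.

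Mitochondria carry a small circular genome that encodes 2 ribosomal RNAs, a set of transfer RNAs and 13 proteins of the respiratory chain, while the other respiratory chain subunits are made from nuclear genes. Mitochondrial transcripts lie within the organelle, whereas most nuclear transcripts are in the cytosol or on the endoplasmic reticulum and a few long noncoding RNAs stay in the nucleus. A high mitochondrial share is therefore widely used to screen out damaged cells, although cells rich in mitochondria also show one. Absorptive enterocytes, which line the villus and take up nutrients, are rich in mitochondria and change their program as they move from the villus base, where antimicrobial genes are active, to the tip, where purine and lipid handling genes are.

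The libraries held 61370270 and 76701215 UMIs over 56980 genes, of which 37 were mitochondrial. Of the barcode sequences, 28 occurred in both libraries, 4 of them above the limit in both. Markers of other cell types were often seen: T cell-like barcodes, thinned to 200 nuclear UMIs each, carried a plasma cell marker in 36.6% and 40.3% of cases. How much of this came from free RNA in the droplets was not tested.

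The barcodes above the limit fell into 2 groups along the mitochondrial share. In the control library, 675 barcodes lay between 25 and 30%, 27 between 55 and 60% and 429 between 85 and 90%. In the model library these numbers were 728, 35 and 569. The low point lay at 55 to 60% in the control library and at 60 to 65%, with 30 barcodes, in the model library, so the set was split at 60%, a value chosen after the distribution was seen. Between 25 and 60% there were 1586 and 2201 barcodes (15.5% and 19.2% of each library), and above 60% there were 1340 and 1346 (13.1% and 11.7%).

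The 2 groups differed in nuclear and hardly in mitochondrial UMIs. Barcodes between 25 and 60% held a median of 2440 and 2379 nuclear UMIs, near the 3208 and 3417 of the barcodes at or below the limit. Those above 60% held 247.5 and 200. Median mitochondrial UMIs were 1196 and 1205 between 25 and 60% and 1282 and 1277 above 60%, against 232 and 171 at or below the limit. Above 60%, the median number of genes seen was 150 and 124, against 1137.5 and 1106 between 25 and 60%. Barcodes above the limit thus held 47.6% and 52.1% of all mitochondrial UMIs and only 8.41% and 8.56% of the nuclear ones. Those above 60% held 23.3% and 21.4% of mitochondrial but 0.739% and 0.492% of nuclear UMIs, so sums over the whole set describe mainly the barcodes between 25 and 60%. At the limit itself nothing stepped: the 171 and 147 barcodes at 25 to 26% had median nuclear UMIs of 2930 and 2894, and the 178 and 128 at 24 to 25% had 3011 and 3192.5.

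**Figure D1:**
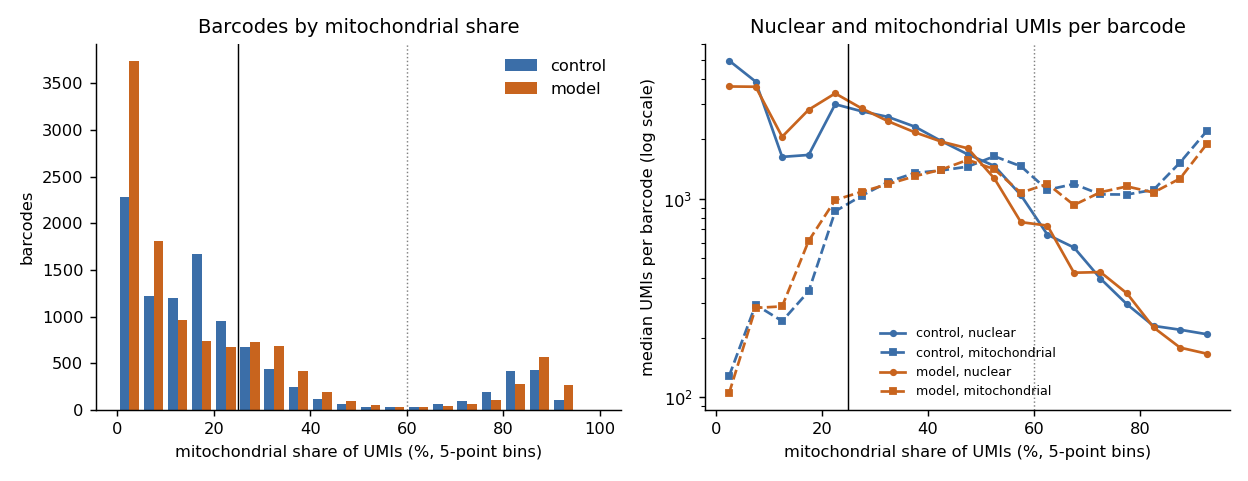
Left, barcodes per 5-point bin of the mitochondrial share (percent of all UMIs) in each library; right, median nuclear and mitochondrial UMIs per barcode in the same bins on a log axis. The solid line marks the limit of 25% and the dotted line 60%. Both libraries show a second rise, to 429 and 569 barcodes at 85 to 90%, where nuclear UMIs per barcode are low and mitochondrial UMIs are not.

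Cell classes were taken from clusters made on nuclear genes of both libraries together and are called "-like", since they rest on marker transcripts alone. Enterocyte-like barcodes made up the largest class above the limit, with 1297 and 1866 barcodes (44.3% and 52.6% of the set). Of all enterocyte-like barcodes, 41.1% (39.4 to 42.9) of 3152 in the control library and 57.5% (55.8 to 59.2) of 3245 in the model library lay above it. The class was 30.7% and 28.3% of each library, but 25.3% and 17.4% of the barcodes at or below the limit. Most enterocyte-like barcodes above the limit were below 60%: they were 1169 of 1586 and 1767 of 2201 barcodes between 25 and 60%, and 128 and 99 lay above 60%. With each barcode named by its own marker UMIs instead, the enterocyte share of the set was 57.7% and 60.2%.

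The share above the limit varied widely among the 4 enterocyte-like clusters. In cluster 1, led by the transporters Slc47a1 and Slc5a12 and by Ggt1, a brush border peptidase of glutathione breakdown, 313 of 494 and 736 of 1027 barcodes were above it (63.4% and 71.7%). In cluster 4, led by the fatty acid binding protein Fabp1 and the antimicrobial Reg3a, only 85 of 436 and 237 of 1077 were (19.5% and 22.0%). Cluster 9, led by Plb1, Slc34a2 and Nos2, had 718 of 1669 and 571 of 705 above it (43.0% and 81.0%), and cluster 20, led by the villus tip genes Ada, Slc28a2 and Nt5e, 181 of 553 and 322 of 436 (32.7% and 73.9%). In both libraries the Fabp1-led cluster had the lowest share of the 4.

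Other epithelial classes, as named by cluster, had far fewer barcodes above the limit. Crypt stem or transit-amplifying-like barcodes had 96 of 816 (11.8%, 9.63 to 14.2) and 77 of 955 (8.06%, 6.42 to 9.97). Those 96 and 77 held a median of 3071.5 and 2608 nuclear UMIs, against 16083.5 and 15495.5 in crypt-like barcodes at or below the limit. Among goblet-like barcodes, the mucus-secreting cells, 7 of 335 and 4 of 321 were above it, among enteroendocrine-like, the hormone-secreting cells, 11 of 93 and 11 of 144, and among chemosensory tuft-like barcodes 6 of 83 and 7 of 68. Paneth-like barcodes, of the antimicrobial cells of the crypt base, had 3 of 90 and 1 of 9. With each barcode named by its own marker UMIs, Paneth-like barcodes had 341 of 781 (43.7%) and 16 of 46 (34.8%) above the limit. Goblet-like barcodes then had 14.7% and 19.3%, enteroendocrine-like 14.1% and 27.2%, crypt-like 18.6% and 13.5% and tuft-like 5.56% and 11.8%. The low shares of Paneth-like and goblet-like barcodes thus depended on the naming by cluster.

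Immune and stromal classes, as named by cluster, contributed little. T cell-like barcodes above the limit were 31 of 1272 (2.44%, 1.66 to 3.44) and 64 of 2252 (2.84%, 2.20 to 3.61). They held a median of 1050 and 1264.5 mitochondrial UMIs, against 113 and 93 in other T cell-like barcodes. Plasma cell-like barcodes, which secrete antibody, had 3 of 494 and 6 of 668 above it, and macrophage or monocyte-like barcodes 13 of 315 and 11 of 314. Over all named immune classes the share was 2.17% (1.60 to 2.87) and 2.49% (2.01 to 3.05), and over named epithelial classes 31.1% (29.7 to 32.4) and 41.5% (40.1 to 42.9). The intervals of these families do not overlap in either library. Named by their own marker UMIs, plasma cell-like barcodes had 128 of 1144 (11.2%) and 241 of 1391 (17.3%) above the limit. T cell-like barcodes then had 11 of 725 (1.52%) and 29 of 1346 (2.15%).

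**Figure D2:**
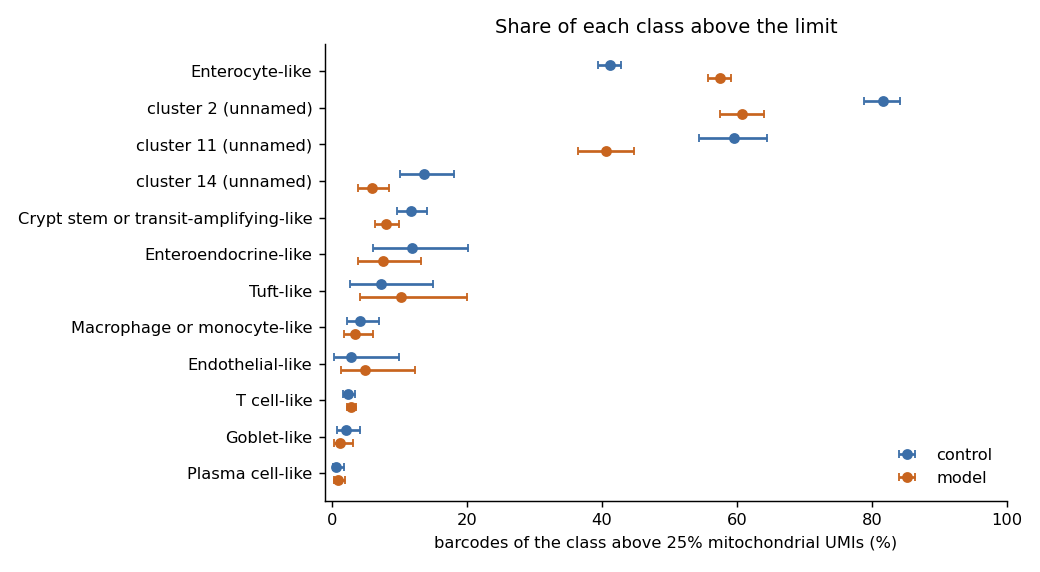
Percent of each class or cluster that lay above 25% mitochondrial UMIs in each library, with exact Clopper-Pearson intervals as bars. The unnamed cluster 2 (81.6% and 60.8%) stands highest of those plotted in both libraries, with an interval that overlaps that of the enterocyte-like class in the model library, followed by cluster 11 (59.5%) in the control and the enterocyte-like class (57.5%) in the model library, and plasma cell-like and goblet-like barcodes lie near 1 to 2%.

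Much of the rest of the set could not be named. Cluster 2, in which none of the 10 enterocyte markers reached the naming rule but whose leading genes held the intestinal transporters Slc27a4 and Slc6a19 and the drug-metabolising Cyp3a11 beside Lars2 and Rn18s-rs5, had 715 of 876 (81.6%) and 542 of 891 (60.8%) barcodes above the limit, 646 and 452 of them above 60%. Cluster 11, led by AY036118, a ribosomal RNA related transcript, had 222 of 373 (59.5%) and 226 of 557 (40.6%). A further 353 and 668 barcodes, all above 60%, held fewer than 200 nuclear UMIs and were given no class. Above the limit, the median was 278 and 290 nuclear UMIs in cluster 2 and 811.5 and 625 in cluster 11.

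Marker transcripts were then compared per barcode at equal depth, by thinning each barcode to 200 nuclear UMIs. Between 25 and 60%, at least 1 of 10 enterocyte marker transcripts was seen in 90.5% and 91.5% of barcodes. All T cell-like barcodes of the library (1272 and 2252, on both sides of the limit), which should lack them, showed one in 33.9% and 26%. Goblet markers were seen in 20.9% and 17.3% of barcodes between 25 and 60% and in 13.4% and 10.3% of T cell-like barcodes. T cell markers were seen in 2.52% and 4.27%, below the 3.44% of plasma cell-like barcodes in the control library and above their 2.54% in the model library, and the T cell-like class itself held 29 and 62 of the barcodes between 25 and 60%. Plasma cell markers were seen in 49.4% and 53.2% of barcodes between 25 and 60%, against 36.6% and 40.3% of T cell-like barcodes. Paneth markers were seen in 15.9% and 2.77%, against 12.8% and 1.69%. Between 25 and 60%, enterocyte markers thus stood well clear of their background in both libraries. Goblet, Paneth and plasma cell markers stood above theirs by less, with the widest gap of these for plasma cell markers.

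Above 60% the barcodes carried transcripts of several cell types at once. Of the 987 and 678 barcodes deep enough to be thinned, 95.7% and 90.9% held an enterocyte marker, 66.5% and 50.7% a goblet marker and 93.0% and 93.7% a plasma cell marker. The same lists in T cell-like barcodes reached 33.9% and 26%, 13.4% and 10.3%, and 36.6% and 40.3%. Paneth markers were seen in 63.5% of control and 9.59% of model barcodes above 60%, against 12.8% and 1.69% in T cell-like barcodes. T cell markers were seen in 3.85% and 9.29%, against 79.6% and 82.2% in T cell-like and 3.44% and 2.54% in plasma cell-like barcodes. Before thinning, the enterocyte share above 60% was 98.5% and 94.0% and the plasma cell share 98.1% and 98.1%, with median depths of 247.5 and 200 nuclear UMIs against 2949 and 2656 for T cell-like barcodes at or below the limit.

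**Figure D3:**
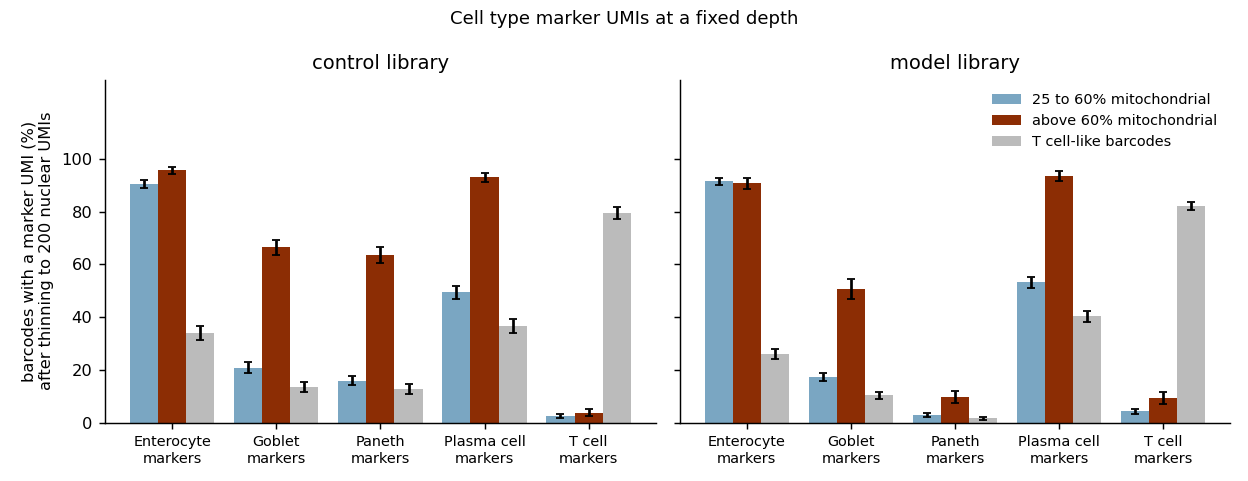
Percent of barcodes with at least 1 UMI of a marker list after thinning to 200 nuclear UMIs, for barcodes between 25 and 60%, above 60%, and all T cell-like barcodes, in each library. Above 60%, enterocyte and plasma cell markers both exceed 90%, whereas T cell markers stay at 3.85% and 9.29%.

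The pooled nuclear profile showed the same difference. Spearman's rho with enterocyte-like barcodes at or below the limit was 0.905 and 0.786 between 25 and 60%, and 0.743 and 0.721 above 60%. With the sum of all barcodes at or below the limit it was 0.513 and 0.402 between 25 and 60%, but 0.810 and 0.804 above 60%. These are descriptions across 2775 and 2278 genes of the same library, which share its depth and any free RNA and are not independent replicates. The profile of barcodes above 60% was thus nearer to the library's own average than to the enterocytes, and that between 25 and 60% nearer to the enterocytes.

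To find which nuclear transcripts were kept or lost, UMIs were summed over barcodes and scaled to the total of nuclear UMIs, as counts per mega-UMI (CPM). A gene was called higher or lower if it differed by at least 2-fold, its interval excluded 1 and either set held at least 50 of its UMIs. That set was often the larger one below the limit, so a gene called higher could rest on fewer UMIs above it. Cemip, named below as higher, had 37 UMIs above and 52 below the limit in the control library. In the control library 1225 of 14873 genes tested were higher (8.24%) and 4791 lower (32.2%) above the limit. In the model library 1494 of 14918 were higher (10.0%) and 5200 lower (34.9%). The median log2 ratio over all genes tested was -0.54 and -0.61. When the barcodes at or below the limit were reweighted to the class make-up above it, the counts were 282 higher and 736 lower of 13089 tested, and 814 higher and 1416 lower of 13324. The counts thus depended on the class make-up.

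The genes named as highest were led by Tmprss15, and none of them was on the enterocyte marker list. Tmprss15, enteropeptidase, which activates trypsin in the gut lumen, was at 52.6 CPM above against 3.69 CPM below the limit in the control library and at 78.9 against 6.12 in the model library, a ratio of 14.3 (11.7 to 17.4) and 12.9 (11.2 to 14.8). Cyp3a11, a cytochrome P450 of drug metabolism, was at 1230 against 208 CPM and at 1171 against 118 CPM (5.92 and 9.91). Enpp3, an ectonucleotide phosphatase, was at 547 against 86.6 CPM and at 726 against 51.5 CPM. Ggt1 was 5.40 and 7.35 times higher, the zinc and manganese transporter Slc30a10 5.6 and 6.68 times, and the lipoprotein gene Apoc2 5.68 and 7.74 times. After reweighting of the classes the ratio of Tmprss15 was 4.73 and 3.67, of Enpp3 2.18 and 4.87 and of Cyp3a11 1.73 and 2.77.

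Of the other genes named as highest, H2-Bl, a class I histocompatibility gene, was at 183 against 27.3 CPM and at 164 against 15.4 CPM. Rab30, a small GTPase of the Golgi, was at 249 against 36.8 CPM and at 358 against 35.4 CPM. The thioesterase Acot12 (6.98 and 10.3), the transporter Slc47a1 (6.0 and 9.19), the kinase Sgk2 (6.29 and 16.7), Nlrp9b, an intestinal inflammasome sensor (5.71 and 13.9), the hyaluronan-degrading Cemip (7.75 and 11.5) and Mroh7 (6.13 and 13.7) made up the rest, together with Lars2. Lars2, the mitochondrial leucyl-tRNA synthetase, was at 6567 against 1298 CPM and at 6152 against 1122 CPM, or 5.06 and 5.48 times higher, and 2.61 and 3.54 times after reweighting. All 15 were higher in both libraries, as the rule for naming them required.

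The genes named as lowest held several of plasma cells, goblet cells and fibroblasts. Jchain, which links antibody molecules into polymers, was at 392 against 5963 CPM and at 367 against 5682 CPM, 15.2-fold (14.5 to 15.9) and 15.5-fold (14.9 to 16.2) lower. Zg16, a lectin of goblet cell mucus, was at 578 against 7314 CPM and at 515 against 5406 CPM. Agr2, a goblet cell disulfide isomerase, was 17.7-fold and 12.7-fold lower, and the chloride channel regulator Clca1 11.2-fold and 14.7-fold. Dcn, a matrix proteoglycan of fibroblasts, was 21.3-fold and 16.9-fold lower and Col1a2, a collagen chain, 10.4-fold and 17.3-fold. With the classes weighted alike the ratio of Zg16 was 0.921 and 0.931 and that of Jchain 0.535 and 0.903, while Dcn (1.06) and Col1a2 (1.48) turned to higher in the control library.

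Immunoglobulin light chain genes were lower as found, but not in the model library with the classes weighted alike. Igkc, the kappa constant region, was at 2917 against 31062 CPM and at 3065 against 32993 CPM, 10.6-fold and 10.8-fold lower. Iglc1, Iglc2 and Iglc3, whose near-identical sequences can share reads, were 13.1, 18.6 and 16.7-fold lower in the control library and 8.11, 11.2 and 11-fold in the model library. The protease inhibitor Slpi (16.0-fold and 20.4-fold) and the surface proteins Ly6d (15.6-fold and 10.1-fold) and Ly6c2 (20.1-fold and 10.6-fold) rested on 8 to 52 UMIs above the limit. With the classes weighted alike the ratios in the model library were above 1 for Igkc (1.13), Iglc1 (1.75), Iglc2 (1.18), Iglc3 (1.78), Slpi (1.57), Ly6d (1.30) and Ly6c2 (1.78), and in the control library for Iglc3 (1.17). Their intervals included 1 for Iglc2, Slpi and Ly6d in the model library and for Iglc3 in the control library. These intervals treat reweighted sums as counted UMIs and so do not measure counting error. Il22, a cytokine of innate lymphoid and T cells, had 2 and 1 UMIs above the limit against 604 and 601 below it. Hbb-bs, a globin of red blood cells, had 0 UMIs above against 319 below the limit in the control library, at least 9.77-fold lower at a floor of 3 UMIs over the set, and 1 against 1597 in the model library.

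Marker lists over all barcodes are given as found and then with the classes weighted alike. Of 10 enterocyte markers 6 were higher in each library, with summed UMIs 2.80 and 2.75 times those below the limit. After reweighting 0 and 1 were higher and 3 and 4 lower, at 0.864 and 0.796. All 8 goblet, 9 Paneth, 10 T cell and 7 fibroblast markers were lower in both libraries, at summed ratios of 0.101 and 0.113 for goblet, 0.359 and 0.206 for Paneth, 0.213 and 0.294 for T cell and 0.0732 and 0.0880 for fibroblast markers. After reweighting none of the goblet (0.980 and 1.05) or T cell markers (0.785 and 0.849) was lower, Paneth markers turned to higher sums (1.84 and 1.99) with 1 and 3 members higher, and 0 and 2 fibroblast markers were lower (1.20 and 0.669). Plasma cell markers were lower in 6 and 7 of 8 (0.101 and 0.102) and crypt markers in 6 and 7 of 8 (0.286 and 0.220), and after reweighting in 0 of 7 (0.632 and 1.16) and in 1 and 2 of 8 (0.829 and 0.769). Cell cycle genes were lower in 11 and 13 of 13, and in 0 and 1 after reweighting. Genes of brush border structure, the actin core and links of the microvilli, were higher in 9 of 10 in both libraries (2.27 and 2.65), and in 0 and 3 after reweighting of the classes.

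Housekeeping lists stood out against this background of classes. Ribosomal protein genes were lower in 80 and 82 of 84, with a median log2 ratio of -2.14 and -2.33, and in 46 and 71 after reweighting. Nuclear genes of the respiratory chain were lower in 47 and 53 of 93 and, after reweighting, in 45 of 91 and 64 of 92. Translation factors were lower in 9 of 11, and in 4 and 6 after reweighting. Because the class make-up moves such sums, the transcripts were compared again within the enterocyte-like class, which alone among the named classes had 100 barcodes on each side of the limit in both libraries.

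Within the enterocyte-like class, 62 of 8444 genes were higher (0.734%) and 579 lower (6.86%) above the limit in the control library. In the model library 516 of 9010 were higher (5.73%) and 1492 lower (16.6%). The median log2 ratio over all genes was -0.08 and -0.13. The nuclear UMIs per barcode were themselves lower above the limit, at a median of 2419 and 2385 against 3460 and 5176. Cluster 4 lay mostly below the limit, and clusters 1, 9 and 20 lay above it more often than cluster 4 did. The clusters on the low side were therefore also weighted as above the limit, an alternative added after the data were seen. This left 24 higher and 205 lower genes of 8445 tested in the control library and 44 higher and 671 lower of 9187 in the model library, and weighted values are given for the genes named as highest or lowest and for most lists.

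Ribosomal protein transcripts, which encode the protein part of cytosolic ribosomes, were lower in 60 of 81 tested in the control library and 79 of 82 in the model library. Their median log2 ratio was -1.25 and -1.85, and -0.82 and -1.36 with clusters weighted alike, when 13 and 65 of 81 were lower. Rpl10, of the large subunit, was at 87.9 against 328 CPM and at 109 against 617 CPM. Rpl29 was at 0.274 and 0.175 of its level below the limit and Rps2, of the small subunit, at 0.319 and 0.156. At the other end stood Rpsa (0.749 and 0.562), the laminin receptor component of the small subunit, and Rpl32l (0.925 and 0.831). No ribosomal protein gene tested was higher by the 2-fold rule in either library.

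Translation factors showed the same order by member. Eef1a1, which brings aminoacyl-tRNA to the ribosome, was at 450 against 1163 CPM and at 536 against 2271 CPM (0.386 and 0.236), and its exchange factor subunit Eef1b2 at 0.326 and 0.213. Eif4a1, an initiation helicase, was at 1.01 and 0.886 and Eef2, the translocation factor, at 0.872 and 0.726. In all 4 and 7 of 11 were lower, and 1 and 4 with clusters weighted alike.

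Nuclear-encoded respiratory chain genes were lower in 43 of 87 and 72 of 90, although the barcodes were chosen for a high share of mitochondrial transcripts. Their median log2 ratio was -0.99 and -1.47, and 9 of 87 and 34 of 89 were lower with clusters weighted alike. Cox5a, a subunit of cytochrome c oxidase, was at 190 against 707 CPM and at 219 against 1481 CPM. Ndufb11, of complex I, was at 38.6 against 168 CPM and at 52.9 against 325 CPM (weighted ratios 0.390 and 0.310), and Ndufb5 at 0.278 and 0.161 of its level below the limit. Atp5d, an ATP synthase subunit, was at 0.885 and 0.732. Cox6b2 was the highest member, at 0.809 and 4.54, the latter from 43 against 24 UMIs.

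Among genes that keep up or clear mitochondria, Polg, the mitochondrial DNA polymerase, was higher in both libraries, at 61.7 against 28.4 CPM and 71.3 against 34.3 CPM. Slirp, which stabilises mitochondrial messenger RNA, was lower at 0.463 and 0.487, and Tfam, which packs mitochondrial DNA, stood at 0.767 and 0.508. The list thus had 1 higher and 1 lower gene of 9 and of 11 tested, and none of either with clusters weighted alike. Of the mitochondrial stress and ATF4 target list, 1 of 9 was lower in the control library, the asparagine synthetase Asns (0.492). In the model library 2 of 10 were higher, Ddit3 (1.48 and 2.22) and Trib3 (1.25 and 2.11), and 5 lower, among them the mitochondrial chaperones Hspe1 (0.579 and 0.311) and Hspd1 (0.587 and 0.343). The weighted clusters left none of the ATF4 list past 2-fold in the control library, and 0 higher and 3 lower in the model library.

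Villus base genes were the other list that was mostly lower. Of 8 tested, 5 and 7 were lower, with summed ratios of 0.307 and 0.156, and 4 in each library with clusters weighted alike (0.336 and 0.355). Reg3b, an antimicrobial lectin, was at 3421 against 12040 CPM and at 3858 against 26610 CPM. Its relative Reg3g stood at 0.323 and 0.145, the cytokine Il18 at 0.331 and 0.208, and the chemokine Ccl25 at 0.570 and 0.311. Lypd8, which keeps bacteria off the epithelium, was at 211 against 1295 CPM and at 249 against 2875 CPM, 6.15-fold (5.69 to 6.65) and 11.6-fold (10.9 to 12.3) lower. Its ratio was 0.306 and 0.225 with clusters weighted alike.

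Villus tip genes had no member past 2-fold among 8 in the control library, and 4 of 9 were higher in the model library. Ada, adenosine deaminase, was at 1530 against 993 CPM and at 2332 against 498 CPM. The nucleoside transporter Slc28a2 (1.10 and 4.19), the transcription factor Klf4 (1.32 and 2.33) and the ectonucleotidase Nt5e (0.778 and 3.91) were the others. With clusters weighted alike 0 of 8 and 0 of 9 passed, and the summed ratio was 1.26 and 1.03 in place of 1.31 and 1.99. The model excess of tip transcripts above the limit therefore moved with the clusters.

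Enterocyte markers did not move as 1 group. Fabp1 was at 2132 against 8037 CPM and at 2890 against 17263 CPM, 3.77-fold (3.68 to 3.87) and 5.97-fold (5.87 to 6.08) lower, and its ratio was 0.507 and 0.377 with clusters weighted alike. Fabp2, the intestinal fatty acid binding protein, was at 3361 against 8758 CPM and at 2899 against 11206 CPM, and the retinol binding protein Rbp2 at 0.454 and 0.285. The sucrase Sis stood at 0.568 and 0.421 and the lactase Lct at 0.961 and 0.971. The apolipoproteins stood above 1, with Apoa4 at 1.33 and 1.91, Apob at 1.08 and 1.83 and Apoa1 at 1.10 and 1.67, and the alkaline phosphatase Alpi was at 731 against 566 CPM and 766 against 370 CPM. By the 2-fold rule 0 were higher and 3 lower in the control library, and 1 higher and 4 lower in the model library, of 10. Of these 10, 1 was lower and none higher in each library with clusters weighted alike.

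The enterocyte genes named as lowest included defence and detoxification genes. Reg1, a secreted lectin, was 6.56-fold and 6.48-fold lower, at 175 against 1149 CPM and 351 against 2277 CPM. The glutathione transferases Gsta1 (5.61-fold and 10.2-fold) and Mgst1 (4.37-fold and 7.55-fold) and the small cysteine-rich Plac8 (4.47-fold and 7.71-fold) followed. With clusters weighted alike these genes stayed below 1, at 0.409 and 0.489 for Reg1, 0.430 and 0.269 for Gsta1, 0.345 and 0.282 for Mgst1 and 0.429 and 0.314 for Plac8. Dynlt1f, a dynein light chain gene, had 0 UMIs above the limit against 67 below it in the control library, at least 7.69-fold lower at the floor, and 7 against 151 in the model library.

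Iron, redox, secretory and glycolytic lists each had members that were lower in both libraries. Fth1, the ferritin heavy chain, was at 1552 against 5456 CPM and at 1864 against 9809 CPM, and the peroxiredoxin Prdx1 at 0.438 and 0.293, and 5 and 4 of 11 on that list were lower. Only 1 of 11 was with clusters weighted alike. Of 12 endoplasmic reticulum genes 3 and 7 were lower, among them the translocon subunit Sec61b (0.299 and 0.181) and Ssr4 (0.446 and 0.290), while the disulfide isomerase P4hb stood at 1.18 and 1.43. Of 11 glycolysis genes 3 were lower in each library, with Eno1 at 0.438 and 0.286 and Pgam1 at 0.412 and 0.267, while Tpi1 stood at 1.05 and 1.17. With clusters weighted alike the lower counts were 1 and 2 for the endoplasmic reticulum and 0 and 1 for glycolysis.

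Transcripts held in the nucleus and ribosomal RNA related loci went the other way. Malat1, a nuclear long noncoding RNA, was at 40755 against 28617 CPM and at 44657 against 18164 CPM (1.42 and 2.46). Neat1, the scaffold of paraspeckles, was at 2194 against 1304 CPM and at 2705 against 1046 CPM. The list had 0 of 4 and 2 of 5 members higher and a summed ratio of 1.43 and 2.46, which was 1.25 and 1.30, with no member past 2-fold, when clusters were weighted alike. Rn18s-rs5, a locus related to 18S ribosomal RNA, took 15% of nuclear UMIs above against 7.20% below the limit in the control library and 16.5% against 4.31% in the model library. Lars2 was at 5328 against 2353 CPM and at 5235 against 1328 CPM. With clusters weighted alike the ratios of Rn18s-rs5 were 1.56 and 1.78 and those of Lars2 1.67 and 1.87, under 2-fold in both.

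A few enterocyte genes were also higher. Tmprss15 was at 67.0 against 14.7 CPM and at 94.0 against 25.5 CPM, a ratio of 4.56 (3.66 to 5.69) and 3.69 (3.17 to 4.29), and of 3.66 and 1.20 with clusters weighted alike. Bmp1, a procollagen protease, was 2.61 and 2.81 times higher and Rab30 2.24 and 3.23 times. Their weighted ratios were 2.48 and 1.46, and 2.11 and 1.27. Enpp3 was 2.19 and 4.87 times higher, and 1.82 and 1.27 times when weighted. Tm4sf4, a membrane protein of the tetraspanin-like family, was 3.14 and 3.17 times higher, but 2.90 and 0.750 when weighted, a reversal in the model library. Rpph1, the RNA of ribonuclease P, had 58 against 48 and 50 against 25 UMIs (3.51 and 5.06, and 2.31 and 1.64 weighted).

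Stress and death genes showed few differences of 2-fold. Of 14 immediate early genes none was higher in the control library and 2 in the model library, Fosb (1.85 and 2.57) and Jun (1.5 and 2.05), while Egr1 stood at 0.968 and 0.816. One heat shock gene of 8, the chaperone Hsp90aa1 (0.785 and 0.50), was lower in the model library only. Of 14 apoptosis genes 1 was lower in each, Diablo in the control library (0.467 and 0.725) and the pore-forming Bax in the model library (0.624 and 0.435). Of p53 targets 0 of 10 and 2 of 11 were higher, Plk2 (1.19 and 4.12) and Trp53inp1 (0.963 and 2.34), and the cell cycle inhibitor Cdkn1a stood at 0.843 and 0.884. None of these 4 lists had more than 2 members past 2-fold in either library. When clusters were weighted alike none of the immediate early or heat shock genes passed, 1 and 0 apoptosis genes were lower, and 1 p53 target was higher and 1 lower, both in the model library.

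Antigen presentation and brush border genes were mixed. The class I gene H2-K1 was at 8251 against 4846 CPM and at 7761 against 2691 CPM (1.70 and 2.88), and the immunoproteasome subunit Psmb9 at 0.498 and 0.405. Of 7 class II genes none passed 2-fold, with H2-Ab1 at 1.09 and 1.89. Among 10 brush border genes 0 and 3 were higher, Plec (1.39 and 2.98), which links filaments to junctions, the microvillar cadherin Cdhr2 (1.19 and 2.08) and the actin bundler Espn (1.21 and 2.01). Myo1a, the microvillar motor, stood at 0.924 and 0.927 and villin, Vil1, at 0.992 and 1.20, and no brush border gene and no class I or class II gene passed with clusters weighted alike.

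Markers of other cell types moved beside these values. In enterocyte-like barcodes above the limit, summed goblet markers were 1.75 and 2.63 times, Paneth markers 1.95 and 2.47 times and plasma cell markers 1.22 and 2.10 times their level below it. They were 1.18 and 1.10, 1.46 and 1.13, and 0.639 and 0.830 with clusters weighted alike. Past 2-fold were 0 and 7 of 7 goblet markers, 3 of 8 and 4 of 4 Paneth markers and 0 and 3 of 5 plasma cell markers tested. T cell markers stood at 1.21 and 1.20, with 0 of 4 and 0 of 6 past 2-fold, and at 0.739 and 0.603 with clusters weighted alike, when 1 of 6 and 2 of 9 were lower. The part of free RNA in these ratios was not tested.

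Along the mitochondrial share, the ribosomal protein and villus base shares of enterocyte-like barcodes differed most below 25%, while Rn18s-rs5 and plasma cell markers stood higher still beyond it. Ribosomal protein transcripts were 6.77% and 7.42% of nuclear UMIs in enterocyte-like barcodes under 5% mitochondrial, 1.46% and 1.89% at 15 to 25%, 1.09% and 1.23% at 25 to 40%, and 4.04% and 4.25% above 80%. Villus base transcripts went from 5.25% and 4.95% under 5% to 0.563% and 0.587% at 25 to 40%. Rn18s-rs5 was 2.09% and 1.66% under 5%, 10.3% and 9.36% at 15 to 25%, 14.5% and 15.8% at 25 to 40% and 28.1% and 30.2% above 80%. Nuclear-retained RNAs were 4.36% and 4.76% at 25 to 40% and 1.64% and 1.60% above 80%. Plasma cell markers were 0.354% and 0.356% at 15 to 25%, 0.373% and 0.375% at 25 to 40% and 1.56% and 1.70% above 80%. The highest bin therefore had more ribosomal protein and plasma cell transcripts and fewer nuclear-retained RNAs than the bin just above the limit. Bins held 24 and 73 barcodes under 5% and 65 and 59 above 80%.

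**Figure D4:**
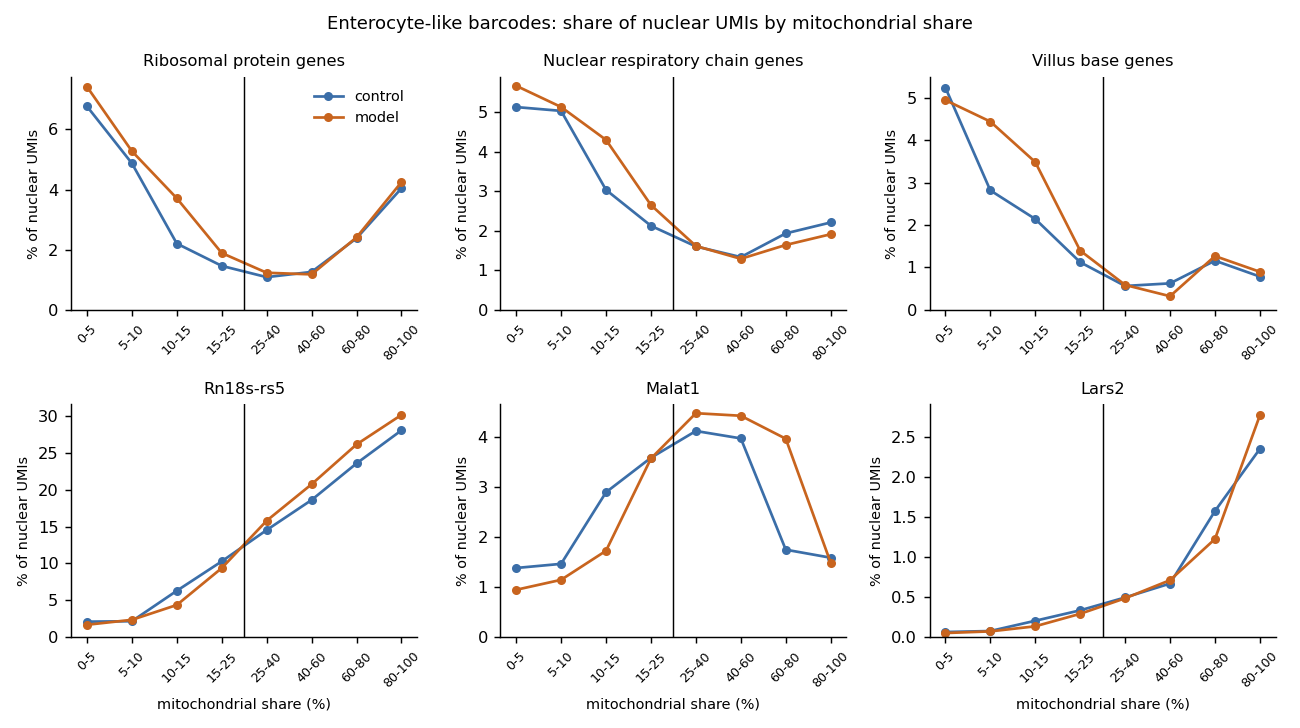
Percent of nuclear UMIs of enterocyte-like barcodes taken by ribosomal proteins, the nuclear respiratory chain, villus base genes, Rn18s-rs5, Malat1 and Lars2 against the mitochondrial share bin, 1 panel each, in both libraries. Rn18s-rs5 climbs to 28.1% and 30.2%, and ribosomal proteins reach their lowest values (1.09% and 1.18%) between 25 and 60% before standing higher above 60%.

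Within single clusters, where the mix of enterocytes varies less, some of these differences were present in both libraries. Lars2 was higher in cluster 1 (1.56 and 1.57), cluster 9 (1.67 and 1.86) and cluster 20 (1.41 and 1.82), none past 2-fold. Lypd8 was at 0.410 and 0.246 in cluster 1 and at 0.352 and 0.426 in cluster 9. Reg3b was at 0.409 and 0.354 in cluster 1 and at 0.279 and 0.355 in cluster 9. The ribosomal protein list had a median log2 ratio of -1.04 and -1.79 in cluster 1, -0.64 and -0.39 in cluster 9 and -0.15 and -0.45 in cluster 20. Cox5a was at 0.484 and 0.437 in cluster 20. The size of the ribosomal protein difference thus depended on the cluster. The base genes Lypd8 and Reg3b were at least 2-fold lower in clusters 1 and 9. Single genes were picked by their values in these clusters, and those of Lypd8 and Reg3b in cluster 20 are not given here.

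Genes with short transcripts were lower more often than genes with long ones. In the enterocyte-like class, 22.4% and 44.7% of the genes in the shortest of 5 equal groups by longest annotated transcript (up to 1743 and 1730 bases) were lower, against 1.43% and 4.34% in the longest group. Without ribosomal protein and respiratory chain genes the shortest group still had 18.7% and 40.6% lower. The median log2 ratio was -0.51 and -0.87 in the shortest and 0.06 and 0.14 in the longest group. These values were not weighted by cluster, and the part of the cluster mix in them was not tested. A transcript was matched for 99.1% of the genes tested in each library.

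Above 60% the sums rest on few UMIs, so lists are given as counts and sums. Against all barcodes at or below the limit, 165 genes were higher (1.11%) and 1369 lower (9.20%) in the control library, and 252 higher (1.69%) and 1114 lower (7.47%) in the model library. Lars2 was at 20121 against 1298 CPM and at 21589 against 1122 CPM, a ratio of 15.5 (15.1 to 15.9) and 19.2 (18.8 to 19.7). Rn18s-rs5 took 28.5% and 29.6% of the nuclear UMIs, against 4.05% and 3.8% at or below the limit. AY036118 was at 256 against 27.4 CPM and at 297 against 31.5 CPM. These 3 loci were thus all higher above 60% in both libraries. Some loci with Gm numbers, which the naming rule left out, had larger ratios still and are given below.

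Enterocyte transcripts were also among the higher ones. The fatty acid transporter Slc27a4 was at 685 against 222 CPM and at 522 against 146 CPM, Ada at 741 against 244 CPM and 725 against 136 CPM, and the lipase Abhd2 at 477 against 193 CPM and 504 against 126 CPM. Of 10 enterocyte markers 2 and 4 were higher, with summed ratios of 1.70 and 1.30, and of 9 villus tip genes 3 and 4. H2-Bl (3.16 and 4.10) rested on 34 and 21 UMIs, and Mir6236 (7.37 and 11.3) on 5 and 4.

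The genes named as lowest above 60% held several of T cells, beside Jchain and Zg16. Gzma, granzyme A of cytotoxic lymphocytes, was at 409 against 2345 CPM and at 722 against 3186 CPM, 5.74-fold (4.92 to 6.74) and 4.41-fold (3.89 to 5.02) lower. The chemokine Ccl5 was 4.65-fold and 4.29-fold lower, Gzmb, granzyme B, 5.19-fold and 4.61-fold, and Srgn, the granule proteoglycan, 4.78-fold and 5.12-fold. Cd3g, of the T cell receptor complex, was 4.43-fold and 4.09-fold lower, and the actin-binding Tmsb4x 2.77-fold and 3.04-fold. Of 10 T cell markers 9 and 6 were lower, and of 10 granzymes and effectors 9 and 7.

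Secretory and plasma cell transcripts were lower too, yet by less than between 25 and 60%. Jchain was at 1386 against 5963 CPM and at 1535 against 5682 CPM, 4.30-fold and 3.7-fold lower, where the barcodes between 25 and 60% were 20.1-fold and 19.2-fold lower. Zg16 was 3.98-fold and 3.48-fold lower above 60%, and 16.0-fold and 11.9-fold between 25 and 60%. Summed goblet markers were at 0.345 and 0.382 and plasma cell markers at 0.312 and 0.410 of their level at or below the limit. Ribosomal protein genes were lower in 65 and 45 of 84, and their sum was at 0.434 and 0.492. Malat1 stood at 0.860 and 1.15, against 2.24 and 3.0 between 25 and 60%.

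A set of loci with nuclear gene names shares its sequence with mitochondrial transcripts. The transcript annotated for Gm28437 in GENCODE M21 (mouse build GRCm38), of 783 bases, is contained in that of mt-Co3, of 784 bases, cytochrome c oxidase subunit 3 of the mitochondrial genome. Their first 60 bases are shown because they are the same letter for letter, which leaves no capital to mark a difference.
Gm28437: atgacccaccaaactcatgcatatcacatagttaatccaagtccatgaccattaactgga
mt-Co3: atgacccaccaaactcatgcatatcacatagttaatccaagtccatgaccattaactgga
Reads of the 2 cannot be told apart by sequence. Gm28437 was 10.3 and 15.3 times higher above the limit and 49.6 and 94.6 times higher above 60%, the latter from 96 and 112 UMIs. Gm28661, all of whose 20-base windows occur in mt-Co2, was 58.2 and 69.8 times higher above 60%, and Gm10925, likewise for mt-Atp6 and mt-Atp8, 38.8 and 70.8 times. These values restate the rule that chose the barcodes. The longest run that the 9 transcripts of Lars2 in the same annotation share with any mitochondrial transcript was 14 bases. Introns and other annotations of Lars2 were not examined.

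The unnamed clusters that hold many of the barcodes above 60% were also split at 25%. In cluster 2, which Lars2 and Rn18s-rs5 lead as a whole, Rn18s-rs5 took 28.5% of nuclear UMIs above against 15.2% below the limit in the control library and 28.2% against 16.8% in the model library. Lars2 was 3.43 and 2.84 times higher there, Apob, the structural protein of chylomicrons, 1.70 and 2.26 times and H2-K1 1.61 and 2.05 times. Jchain was at 0.215 and 0.314, Igkc at 0.216 and 0.442 and the ribosomal protein gene Rps4x at 0.402 and 0.420. In cluster 11, AY036118 was 3.42 and 2.79 times higher, Lars2 2.04 and 2.08 times and Neat1 2.12 and 1.90 times, with Rps13 at 0.350 and 0.320 and Cox5a at 0.331 and 0.273.

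The make-up of the mitochondrial transcripts, which the rule does not fix, also differed along the share. The ribosomal RNAs mt-Rnr1 and mt-Rnr2 together were 43.3% and 45.6% of mitochondrial UMIs at or below the limit, 52.4% and 57.8% between 25 and 60% and 65% and 68.4% above 60%. The small one, mt-Rnr1, went from 19.3% and 19.6% to 23% and 23.8% and to 29.3% and 29.0%. The large one, mt-Rnr2, went from 24.1% and 26% to 29.4% and 33.9% and to 35.6% and 39.4%. Both were in this order in both libraries.

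Protein-coding mitochondrial transcripts took smaller shares. Among mitochondrial UMIs, mt-Cytb, cytochrome b of complex III, was 15.6% and 15.6% at or below the limit, 12.1% and 10.6% between 25 and 60% and 9.58% and 8.74% above 60%. The complex I subunit mt-Nd4 was 10.1% and 9.75%, then 7.87% and 7.01%, then 6.17% and 5.71%, and mt-Nd1 8.41% and 8.93%, 6.95% and 6.64%, and 4.91% and 4.80%. All 13 protein genes had a smaller share above 60% than at or below the limit in both libraries, with ratios from 0.569 to 0.757 in the control library and from 0.538 to 0.774 in the model library.

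The class made a difference here as well. In enterocyte-like barcodes the ribosomal RNAs were 52.4%, 54.0% and 67.6% of mitochondrial UMIs in the control library along the 3 ranges, and 47.2%, 58.1% and 67.5% in the model library. In the named immune classes, of which only 47 and 90 barcodes were above the limit, they were 57.1%, 56.9% and 64.5%, and 62.7%, 64.2% and 62.0%. Between the barcodes at or below the limit and those from 25 to 60%, the ribosomal RNA share thus differed by over 10 points in model enterocytes and by less than 2 points in control enterocytes and in the immune classes of both libraries. These shares were not weighted by cluster. Cluster 4, which lay mostly below the limit, held 436 of 3152 control and 1077 of 3245 model enterocyte-like barcodes. The part of the cluster mix in this difference was not tested.

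**Figure D5:**
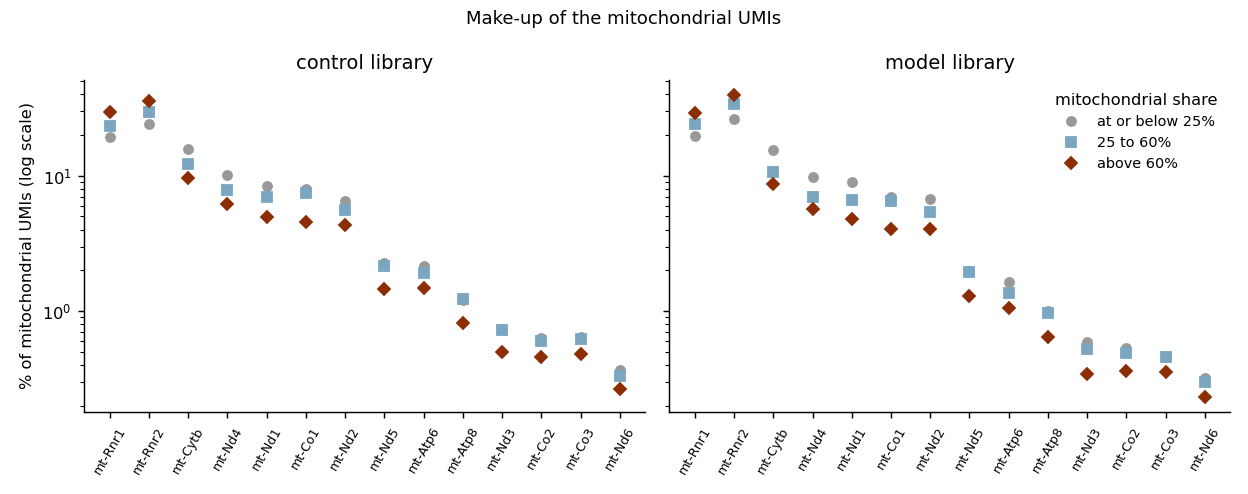
Percent of all mitochondrial UMIs taken by each mitochondrial gene (log axis) at or below 25%, between 25 and 60% and above 60%, in each library. The ribosomal RNAs mt-Rnr1 and mt-Rnr2 stand higher above 60% and the protein genes, such as mt-Cytb and mt-Nd4, lower.

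Setting the limit also touched the comparison of the libraries within the enterocyte-like class. These genes were picked after their values were known, and different clusters hold much of the class in each library: cluster 9 had 1669 control and 705 model barcodes and cluster 4 had 436 and 1077. Duox2, the oxidase of epithelial defence, was 46.6-fold (33.3 to 67.2) lower in the model than in the control library at or below the limit and 26.8-fold (15.7 to 49.7) lower above it. Nos2, the inducible nitric oxide synthase, was 26.3-fold (19.3 to 37.0) and 39.1-fold (17.6 to 108) lower. Dbp, a clock-controlled transcription factor, was 6.81 (4.76 to 10.0) and 9.29 (5.04 to 19.0) times higher in the model library and the xenobiotic-induced Cyp1a1 4.45 (3.87 to 5.13) and 3.98 (2.82 to 5.74) times. For these 4 genes the intervals above and below the limit overlap.

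Other genes gave different library ratios on the 2 sides. Fabp1 was 2.15 (2.13 to 2.17) times higher in the model library at or below the limit and 1.36 (1.32 to 1.40) times above it. Il18 was 2.71 (2.56 to 2.87) and 1.70 (1.43 to 2.04) times higher. The model over control ratio of Ada was 0.501 (0.485 to 0.518) at or below the limit and 1.52 (1.47 to 1.58) above it, and that of Apoa4 0.808 (0.801 to 0.816) and 1.16 (1.15 to 1.17), so both changed side. Slc34a2, a phosphate transporter, was 17.5-fold lower in the model library below and 3.13-fold lower above the limit. The intervals of Lct overlapped, at 0.748 (0.724 to 0.771) and 0.755 (0.716 to 0.796).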

How the data were processed

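Droplet RNA sequencing measured polyadenylated RNA of 1 control and 1 model library. The deposited matrices hold whole-number UMI counts per gene and barcode, not normalised, and the file headers name Cell Ranger 7.0.1. The submitters' processing notes instead name Cell Ranger 4.0, with build GRCm39. For the annotation and for intronic reads, the setting was not given in the sources used here. GENCODE M21 (GRCm38) served for transcript lengths and sequences only, matched by Ensembl gene ID.

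Groups came from the sample titles. The lists, the 25% limit and the members were chosen with earlier results of these data known. Every barcode held at least 500 UMIs. Genes whose symbols start with mt- were counted as mitochondrial and all others as nuclear. Barcodes with at least 200 nuclear UMIs from both libraries were clustered together on nuclear genes without batch correction (scaled to 10000, 2000 variable genes, 30 components, 15 neighbours, Leiden resolution 1). A cluster was named from a marker list if at least 3 markers passed 2-fold over the others and 10% of its barcodes. It stayed unnamed if another class led its top 10 genes. It also stayed unnamed if its median UMI count was under that of its library divided by 3, whatever its markers. No doublet caller was run, and an alternative left out the 2% of barcodes with most UMIs.

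UMIs were summed per set and scaled to the nuclear total. Ratios carry exact binomial and shares exact Clopper-Pearson 95% intervals, treating UMIs as independent and leaving out the spread between cells. Genes needed 50 UMIs in whichever set held more of them, not always the set with the higher CPM. A sum of 0 was set against a floor of 3 UMIs. Classes needed 100 barcodes on each side. The ratio calculation was tested on simulated data. Edges of the 60% split were chosen after the distribution was seen.

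A gene could be named if the set with more of its UMIs reached 50 in both libraries and it was no mt- gene, variable segment or unnamed locus. They were ranked by the lesser of both libraries' interval bounds nearest to 1. The rule took 15 highest and 15 lowest over all barcodes, 8 and 8 in each compared class, the 2 highest and 2 lowest members of each list and the mitochondrial protein and ribosomal RNA genes. Other list members given in the text were chosen after their values were seen. Alternatives changed the limit, UMI minimum, clustering, scaling, gene minimum and denominators, or weighted classes or clusters alike. For the weighting, sums below the limit were rescaled by class or cluster and treated as counts, also for the minimum of 50 UMIs. Barcodes under 200 nuclear UMIs had no class and were left out of the weighting. Tools were Python 3.11.15, scanpy 1.11.5, anndata 0.12.19, scipy 1.17.1, numpy 2.4.6, pandas 2.3.3, igraph 0.11.9, scikit-learn 1.9.0 and matplotlib 3.10.9.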

Additional observations from a re-analysis of the deposited data

Results flagged for a closer look

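In 4 gene lists the summed UMIs above the limit were higher than below it in one library and lower in the other, and the difference between the libraries was not tested. Paneth markers, genes of the antimicrobial cells of the crypt base, stood above 60% mitochondrial at 1.68 (1.61 to 1.74) times their level at or below 25% in the control library and at 0.611 (0.536 to 0.694) in the model library. Enteroendocrine hormone genes stood above 60% at 0.493 (0.435 to 0.556) in the control and 1.46 (1.35 to 1.58) in the model library. Nuclear-retained long noncoding RNAs stood above 60% at 0.872 (0.850 to 0.894) and 1.17 (1.14 to 1.20). All ratios in this paragraph are scaled to nuclear totals that include Rn18s-rs5, which took a larger part of them above the limit in both libraries. A larger part for Rn18s-rs5 lowers the ratios of all other genes. Whether these lists still stood on opposite sides of 1 without it was not tested. Within the enterocyte-like class, genes of class II antigen presentation stood above 25% at 0.938 (0.909 to 0.967) in the control and 1.58 (1.53 to 1.62) in the model library, where none of 7 passed 2-fold in either.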

How the results depend on the processing

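All alternatives planned were run. No paired analysis was possible because each group holds 1 library, and no library could be left out. The share of barcodes above the limit was 37.8% and 36.8% (control, model) at a limit of 20%, 21.9% and 24.6% at 30%, 30.8% and 32.1% with at least 1000 UMIs and 26% and 26.7% with at least 200 nuclear UMIs, so the model library was the lower one at 20%. Enterocyte-like barcodes were 57.7% and 60.2% of the set by their own markers. Enterocyte-like barcodes with at least 400 nuclear UMIs were 41.7% and 50.8% of the whole set, whose other barcodes were not held to that minimum. By own markers 43.8% and 54.6% of the class lay above the limit. Over all barcodes, the genes higher and lower numbered 282 and 736 in the control and 814 and 1416 in the model library with classes weighted alike, and 165 and 1369, and 252 and 1114, with only barcodes above 60%. In the enterocyte-like class the genes higher numbered 237 and 1025 at a minimum of 10 UMIs, and 116 and 809 with a denominator without 18S rRNA and look-alike loci. They numbered 24 and 44, and the genes lower 205 and 671, with clusters weighted alike. At a limit of 20% the control library had 98 higher. The mitochondrial rRNA share above the limit, 58.6% and 62.1%, was 60.3% and 63.6% at 30% and 58.3% and 62.0% with at least 1000 UMIs.

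With classes weighted alike, ratios over all barcodes turned from lower to higher for Dcn (1.06), Iglc3 (1.17) and Col1a2 (1.48) in the control library and for Igkc (1.13), Iglc2 (1.18), Ly6d (1.30), Slpi (1.57), Iglc1 (1.75), Iglc3 (1.78) and Ly6c2 (1.78) in the model library. That alternative gives classes that are scarce above the limit little weight below it. Hbb-bs in the control library stood at 1.16 above 60% only because 0 UMIs were set against the floor. Tm4sf4 in model enterocytes stood at 0.750 with clusters weighted alike, and the cause was not tested. Of the other single-gene and list values under the alternatives, 459 moved beyond their interval. The remaining 1307 stayed within it or belonged to lists too short to have an interval. The alternatives that restrict to above 60%, weight clusters or drop 18S rRNA were chosen after the data were seen. Above 60%, median nuclear depth of 247.5 and 200 UMIs limits single genes, and 353 and 668 barcodes were too shallow for a class.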

Other observations

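Cluster 3, low in RNA and led by the Paneth defensins Defa22 and Defa21, held 1244 barcodes of the control and 28 of the model library, of which 123 (9.89%) and 9 lay above the limit. Cluster 3 stayed unnamed for its low UMI count, although 6 of 9 Paneth markers passed. Cluster 14, led by Gsdmc4 and the carbonic anhydrase Car4, had 42 of 307 (13.7%) and 27 of 457 (5.91%) above it. Cluster 23 carried 9 of 10 T cell markers but stayed unnamed by its leading genes, and had 1 of 109 and 10 of 295 above it.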
